A study of Mus musculus with 2 samples.

Results

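The tumour B cells and plasma cells of the series are 110 of the 2610 cell barcodes kept here, 57 of 1754 from shPml tumours and 53 of 856 from shCTRL tumours. They were chosen by measured values. A barcode was kept when it had 200 or more genes and no more than 10% of its UMIs (unique molecular identifiers, 1 for each counted transcript) from mitochondrial genes. A member had at least 2 UMIs in all of Cd79a and Cd79b, the signalling chains of the B cell receptor, and Ms4a1, which encodes CD20. It also had 0 UMIs of Cd3d, Cd3e and Cd3g, and under 1% of its UMIs came from S100a8 and S100a9, which are abundant in neutrophils. The leukocytes were CD45-positive cells sorted from mammary tumours that a mouse carcinoma line, 4T1, had formed, in a series that asks how PML in this tumour bears on immune cells. In the shPml group the injected cells expressed a hairpin RNA named for Pml, which encodes the scaffold of PML nuclear bodies. In the shCTRL group they expressed the hairpin named as control. All hosts were BALB/c mice of 6 to 8 weeks that received the cells in 50 µl of PBS in the mammary fat pad. Tumours were taken on day 14, when they were of like size, and dissociated with 0.25 mg/ml collagenase and 50 U of DNase, followed by 10 min of red cell lysis. The hairpin was in the tumour cells and not in the B cells of the host. The labels do not say how many mice gave each library, nor their sex, and with 1 library a group no difference below has a replicate check. Every interval is an exact 95% interval that covers counting error only.

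B cells recognise antigen through a surface immunoglobulin that is joined to the CD79 chains. Naive follicular B cells carry IgM and IgD, and recirculate through lymphoid tissue with the help of the homing receptor CCR7 and the egress receptor S1PR1. After activation some enter germinal centres, where BCL6 holds their programme, the antibody genes mutate and can switch from IgM and IgD to IgG or IgA, and the cells divide. Plasma cells are the end stage and devote much of their RNA to secreted antibody and to the joining chain, Jchain. In tumours B cells can also present antigen on MHC class II molecules to helper T cells.

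The B cells were among the deeper barcodes. The 57 shPml members held 349784 UMIs, with a median of 4020 per cell (512 to 30092), and the 53 shCTRL members held 269598, with a median of 4361 (654 to 26459). The median over all kept barcodes was 1300 UMIs for shPml and 4040 for shCTRL. Of the deposited barcodes, 514 of 2268 and 1388 of 2244 were over the mitochondrial limit. The libraries also shared 266 cell barcodes, and 11 of these carried a member in at least 1 library. In 9 of the 11 both copies met the rule. In all 11 pairs 1 copy was far fainter: 3 had 35.7 to 37.7 times more UMIs in the shPml library, and 8 had 12.3 to 15.4 times more in the shCTRL library. In antibody-rich pairs both copies held the same immunoglobulin genes: 1 barcode had 3454 Ighg2b UMIs in the shPml and 71 in the shCTRL library, and another had 356 and 4059 Ighg1 UMIs. The fainter copy was a member in 7 shPml and 3 shCTRL cases, each with at most 1149 UMIs, and 100 members, 50 a library, remain without them. Results that rest on these barcodes are given with and without them.

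The members carried further B cell genes that the rule did not use. Ebf1, a transcription factor of B cell commitment, was detected in 53 of 57 shPml and 48 of 53 shCTRL members, at 1166 and 1421 counts per 1000000 UMIs (CPM). In a T cell gate (at least 2 Cd3 UMIs, no B cell marker UMI, 853 and 555 barcodes) it stood at 3.75 and 3.10 CPM. Pax5, which maintains B cell identity, was found in 38 of 57 shPml and 36 of 53 shCTRL members. Jchain was found in 13 of 57 shPml and 12 of 53 shCTRL members, and only 1 shPml and 2 shCTRL members had 1% or more of their UMIs in it, under the 10 that would form a class of their own. By these genes the members are B cells with single plasma cells among them. Of the 3 genes of the rule, Cd79a stood at 1987 and 2348 CPM, Cd79b at 921 and 998 CPM, and Ms4a1 at 743 and 701 CPM.

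Summed over the members, markers of other leukocytes were mostly low, but many single members held 2 or more of them. All 9 genes of the erythroid and platelet list and all 9 of the mast cell and basophil list were at 0 in both libraries. Of the T cell list 8 of 16 genes were detected in the shPml and 12 of 16 genes in the shCTRL members, at 200.1 and 359.8 CPM in all, with Cd8a at 0 in both libraries and Trac and Cd4 at 0 in the shPml library. Summed per cell, the T cell list ranged from 0 to 19.5 UMIs per 10000 in the shPml and from 0 to 26.1 in the shCTRL members. Cd2 alone gave 42 of the 70 shPml and 43 of the 97 shCTRL UMIs of this list, in 26 and 26 members. The neutrophil list was detected with 10 of 12 genes and 4 of 12 genes, at 289 and 37.1 CPM, and from 0 to 124 UMIs per 10000 in single shPml members against 0 to 3.35 in shCTRL members. One shPml member of 3955 UMIs had 2 B cell marker UMIs, 248 of the 264 Cxcl2 UMIs and 42 of the 46 Il1b UMIs, which encode a neutrophil attractant and a cytokine of myeloid cells. The monocyte and macrophage list stood at 449 and 404 CPM, with Csf1r and all 3 C1q genes at 0 in both libraries, and the dendritic cell list at 157 and 159 CPM, with Xcr1 and Clec9a at 0. Wdfy4 alone gave 43 of the 55 shPml and 38 of the 43 shCTRL UMIs of the dendritic cell list. The plasmacytoid dendritic cell list, which shares genes with B cells, stood at 755 and 931 CPM, with Siglech at 0. The NK cell list was at 14.3 and 11.1 CPM and the epithelial list at 22.9 and 44.5 CPM, with the keratins Krt8 and Krt18 at 0. The doublet caller Scrublet, run on each library, marked 0 shPml members and 1 shCTRL member, and no cell was removed for it. The part of these other cells in the results was not tested beyond the values given beside them.

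The Cd3 and mitochondrial limits kept out many barcodes that met the rest of the rule, the former mostly in the shCTRL library. Exactly 2 B cell marker UMIs were found in 3 shPml and 4 shCTRL members, with median depths of 1149 and 726 UMIs. Just outside were 11 and 5 barcodes with exactly 1 such UMI. A Cd3 UMI kept 3 shPml and 23 shCTRL barcodes out, 2 and 14 of them with exactly 1, and the S100 limit kept out 2 and 0. With no Cd3 limit 60 shPml and 76 shCTRL barcodes met the rule, and the shCTRL share below was 8.88% in place of 6.19%. The mitochondrial limit kept out 70 shPml and 79 shCTRL barcodes that met the rest of the rule, more than were kept.

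B cells were a smaller share of the kept barcodes in the shPml library, but not of its deposited barcodes. They made up 3.25% (57 of 1754, 2.47 to 4.19%) of kept barcodes there and 6.19% (53 of 856, 4.67 to 8.02%) among shCTRL barcodes, a ratio of 0.525 (0.355 to 0.778). Without the fainter copies the shares were 2.96% (50 of 1691, 2.20 to 3.88%) and 7.60% (50 of 658, 5.69 to 9.90%), a ratio of 0.389 (0.258 to 0.588). Among kept barcodes outside the T cell gate they were 6.33% (57 of 901, 4.83 to 8.12%) and 17.6% (53 of 301, 13.5 to 22.4%), a ratio of 0.359 (0.243 to 0.532). With no limit on mitochondrial UMIs, 127 shPml and 132 shCTRL barcodes met the rule and the ratio was 0.970, while at a limit of 5% it was 0.308. Of all deposited barcodes the members were 2.51% (57 of 2268) in the shPml and 2.36% (53 of 2244) in the shCTRL library. The limit of 10% had kept out 22.7% of the shPml and 61.9% of the shCTRL barcodes, and cell loss by it and the number of B cells cannot be told apart.

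Most members carried both IgM and IgD transcripts. Ighd was found in 66.7% (52.9 to 78.6%) and 77.4% (63.8 to 87.7%) of the shPml and shCTRL members, and Ighm in 80.7% (68.1 to 90.0%) and 92.5% (81.8 to 97.9%). Any of the 4 IgG genes was found in 33.3% (21.4 to 47.1%) and 17.0% (8.07 to 29.8%). Igha and Ighe had 0 UMIs in both libraries, and a count of 0 among 57 and 53 cells allows a share of up to 5.26% and 5.66% of cells with an Igha UMI. The kappa light chain gene was found in 56 of 57 and 53 of 53 members, and a lambda constant gene in 82.5% (70.1 to 91.3%) and 94.3% (84.3 to 98.8%), although in a single shCTRL member lambda UMIs outnumbered kappa UMIs (24 against 6). The intervals of the 2 libraries overlapped for every chain in the plot of isotype shares. Leaving out the fainter copies moved the shares to 76 and 82% of 50 and 50 cells for IgD, 86 and 94% for IgM, and 30 and 16% for IgG.

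The shares were also taken at equal depth and set beside those of the T cell gate. After each cell was thinned to 500 UMIs, which kept all 57 and 53 cells, IgD was found in 33.3% (21.4 to 47.1%) and 28.3% (16.8 to 42.3%), IgM in 50.9% (37.3 to 64.4%) and 56.6% (42.3 to 70.2%), IgG in 14.0% (6.26 to 25.8%) and 7.55% (2.09 to 18.2%) and lambda in 42.1% (29.1 to 55.9%) and 56.6% (42.3 to 70.2%). Kappa was found in 86.0% (74.2 to 93.7%) and 98.1% (89.9 to 100%). In the T cell gate, with median depths of 1410 and 4352 UMIs against 4020 and 4361 in the members, 0.821 and 3.24% of barcodes had an Ighd UMI and 3.63 and 11.4% an IgG UMI. The T cell shares for Ighm were 21.9 and 31.9% and for Igkc 10.1 and 19.8%. All 8 were below the unthinned shares in the members of the same library, but the thinned IgG share of the shCTRL members was below the unthinned share of its T cell gate.

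**Figure D1:**
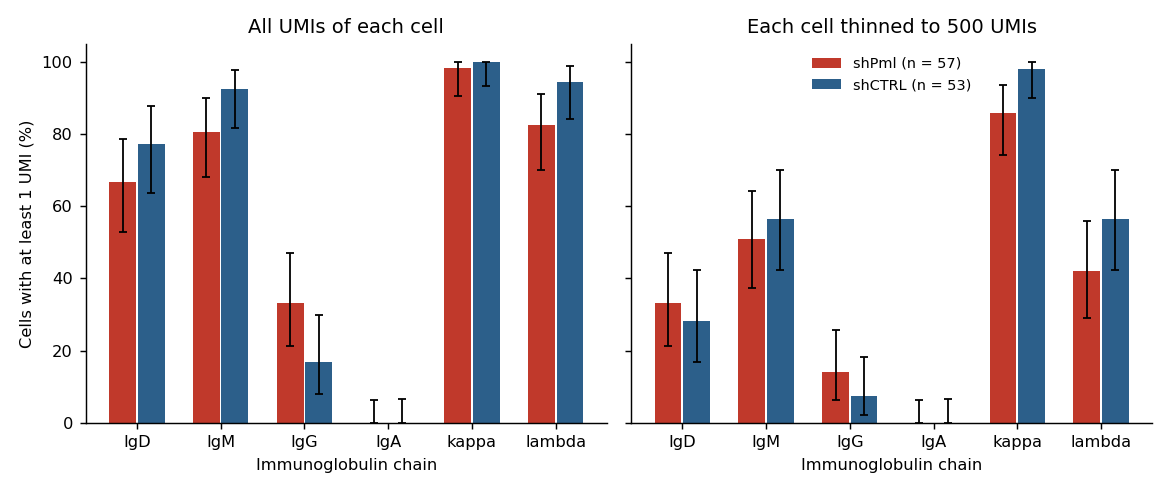
Share of B cell members (percent, y axis) with at least 1 UMI of each immunoglobulin chain (x axis), in the shPml library (57 cells) and the shCTRL library (53 cells), over all UMIs (left) and after thinning each cell to 500 UMIs (right). Bars are shares and lines are exact 95% binomial intervals, which overlap between the libraries for each chain; IgA is at 0 in both.

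Within both libraries the B cells comprised a larger group with Ighd UMIs and a smaller, deeper group without. The split was made after the values were seen and leaves out the fainter copies and the 2 plasma cells, so it is a description. In the shPml library 38 cells had Ighd (median 3987.5 UMIs) and 11 did not (median 10336). In the shCTRL library 41 had it (median 4269) and 8 did not (median 7729), of which 5 are barcodes found in both libraries. IgG transcripts outnumbered Ighm in 6 of the 11 shPml cells without Ighd, all of them with Ighg1 and with 0 Ighm UMIs. In the shCTRL library this held in 4 of 8 cells, 3 with Ighg1 (1 of them on 2 IgG UMIs and 1 Ighm UMI) and 1 with Ighg2b and Ighg2c. No cell with Ighd in either library had more IgG than Ighm UMIs. Jchain had 96 against 0 UMIs in the shPml and 82 against 7 in the shCTRL library (cells without Ighd against cells with), or 829.7 against 0 CPM and 1323 against 39.1 CPM.

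The cells without Ighd expressed the germinal centre genes. All 10 measured genes of the germinal centre list were at least 2-fold higher in them in both libraries, where 7.77% of all measured genes were (at least 20 summed UMIs). Taken singly, 16.4% of measured genes in the shPml and 24.4% in the shCTRL library were at least 2-fold higher. The median log2 ratio of the list was 3.85 in the shPml and 2.73 in the shCTRL library, against 0.09 and 0.31 over all measured genes. In the cells with Ighd alone 0 of the 12 list genes reached 20 summed UMIs. The list genes thus passed the filter with the help of the cells without Ighd, where they are high. Their count is a description and no independent check of the split. Mef2b, a transcription factor gene that acts upstream of Bcl6, stood at 190.1 against 0 CPM in the shPml library (cells without Ighd against cells with) and at 323 against 5.59 CPM for shCTRL. It was found in 6 of the 11 cells without Ighd and 0 of the 38 with it, and in 6 of the 8 cells without Ighd and 1 of the 41 with it. Bcl6 itself stood at 121 against 24.4 CPM and 178 against 27.9 CPM. A receptor gene and a gene of receptor signalling showed the same order. S1pr2, which confines cells there, stood at 129.6 against 4.89 CPM and 194 against 5.59 CPM, and Rgs13, a regulator of chemokine receptor signalling, at 207 against 14.7 CPM and 194 against 27.9 CPM.

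Further members of the list were likewise higher in cells without Ighd. Basp1 stood at 398 against 39.1 CPM in the shPml and 419.6 against 50.3 CPM in the shCTRL library, and the transcription factor gene Mybl1 at 156 against 4.89 CPM and 129 against 0 CPM. Gcsam, a signalling adaptor of germinal centre B cells, had 24 UMIs in 4 shPml and 6 UMIs in 3 shCTRL cells without Ighd and 0 in all cells with it. The death receptor gene Fas stood at 95.1 against 4.89 CPM and 113 against 27.9 CPM. Neil1, a DNA glycosylase gene, stood at 285 against 19.5 CPM in the shPml library and 80.7 against 39.1 CPM in the shCTRL library, where the interval of its log2 ratio held 0 (-0.95 to 2.92). Outside the list, Eaf2, a transcription elongation factor gene, stood at 268 against 14.7 CPM and 307 against 22.4 CPM, and Pou2af1, a coactivator of immunoglobulin genes, at 769 against 186 CPM and 533 against 139.7 CPM. They belong to the antibody-secreting list, of which 4 of 11 measured genes were at least 2-fold higher in both libraries, against 7.77% of all measured genes.

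Single cells carried the list unevenly, as the plot of the germinal centre list by depth shows. In the shPml library 8 of the 11 cells without Ighd had UMIs of at least 2 list genes, and 3 of the 38 with Ighd did. In the shCTRL library these were 6 of 8 and 4 of 41. The 3 shPml cells without Ighd and without any list gene had 1738, 3509 and 6353 UMIs and carried Ighm, so an Ighd of 0 does not mark the same state in every cell. The 5 shCTRL cells whose barcode is in both libraries hold much of the shCTRL pattern. Without shared barcodes the summed list stood at 1927 against 165 CPM for shPml (10 and 37 cells) and at 2073 against 189.7 CPM for shCTRL (3 and 40 cells), so the order was the same on few cells.

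**Figure D2:**
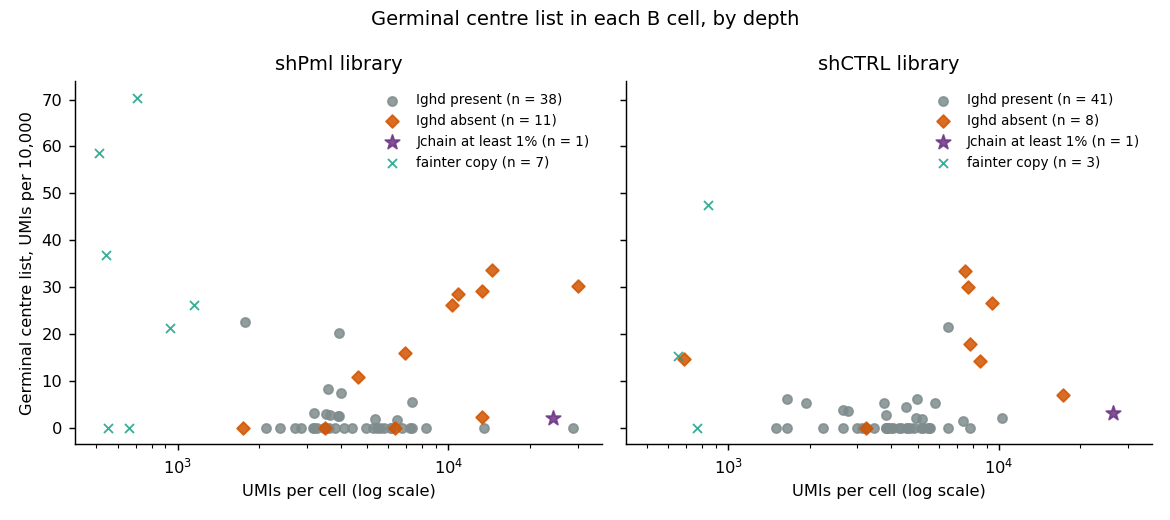
UMIs of the germinal centre list per 10,000 UMIs of the cell (y axis) against UMIs per cell (x axis, log scale), 1 symbol for each B cell member of the shPml (left) and shCTRL library (right). Circles have Ighd UMIs, diamonds have none, the star has at least 1% Jchain and crosses are the fainter copies of barcodes found in both libraries; most of the deep diamonds lie above the circles, and the 10 fainter copies have at most 1149 UMIs.

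Genes of dividing cells followed the same split. Of 14 measured proliferation genes 9 were at least 2-fold higher in the cells without Ighd in both libraries, where 7.77% of all measured genes were. In the shCTRL library 12 of the 14 had a ratio. In the cells with Ighd alone 4 of the 20 list genes reached 20 summed UMIs. Most of the 14 thus passed the filter only with the cells without Ighd, and their count is a description. Mki67, a marker of cycling cells, stood at 268 against 24.4 CPM and 436 against 0 CPM, and Top2a, the topoisomerase of dividing cells, at 294 against 63.5 CPM and 258 against 0 CPM. Both were at 0 in the shCTRL cells with Ighd. Hmgb2, a chromatin protein gene and the best counted of the list, stood at 1910.0 against 513 CPM and 1920.4 against 531 CPM. The replication gene Mcm5 stood at 156 against 44.0 CPM and 209.8 against 11.2 CPM, and the clamp gene Pcna at 233 against 151 CPM and 290.5 against 39.1 CPM. A single cell gave much of this in each library. The shPml cell of 30092 UMIs held 469 of the 1022 proliferation UMIs of all shPml members, or 45.9%, and the shCTRL cell of 17190 UMIs held 229 of 516, or 44.4%. Both carry Ighm and Jchain and no Ighd, and both barcodes are found in the 2 libraries. Without shared barcodes the summed list stood at 2184 against 916 CPM for shPml and 2937 against 1031 CPM for shCTRL.

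Genes of resting, recirculating B cells went the other way. Of 13 measured follicular genes other than Ighd, 7 were at least 2-fold lower in the cells without Ighd in both libraries, and of 12 homing and chemokine receptor genes 7 were, where 4.48% of all measured genes were. Ccr7, the receptor that leads cells into lymphoid tissue, stood at 104 against 572 CPM and 48.4 against 676 CPM (cells without Ighd against cells with). S1pr1, which guides cells out of lymphoid tissue, stood at 25.9 against 137 CPM and 32.3 against 173 CPM. Both recirculation genes were thus lower in the cells without Ighd of both libraries. Zfp318, which is needed for IgD expression, stood at 17.3 against 147 CPM and 0 against 313 CPM, and Cd55, a complement regulator gene, at 8.64 against 132 CPM and 32.3 against 240.3 CPM. Cxcr5, the receptor for follicles, did not share this order: it stood at 25.9 against 151 CPM for shPml and at 209.8 against 117 CPM for shCTRL. Cr2, a complement receptor gene, stood at 129.6 against 205 CPM and 145 against 196 CPM, with intervals that held a ratio of 1. Without shared barcodes the summed follicular list stood at 3095 against 6062 CPM for shPml but at 8467 against 8228 CPM for shCTRL, where 3 cells without Ighd remain, so the shCTRL order rests on the shared barcodes. Of 16 measured type I interferon genes, 10 were at least 2-fold lower in the shPml cells without Ighd and 6 in the shCTRL cells, where 15.7% and 11.6% of all measured genes were. Among all measured genes those lowest in cells without Ighd in both libraries also included Plac8, at 77.8 against 923 CPM and 32.3 against 609 CPM, the chromatin organiser gene Satb1, at 95.1 against 537 CPM and 32.3 against 531 CPM, and the activation marker gene Cd83, at 311 against 826 CPM and 500.3 against 1224 CPM, which were named after their values were seen.

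**Figure D3:**
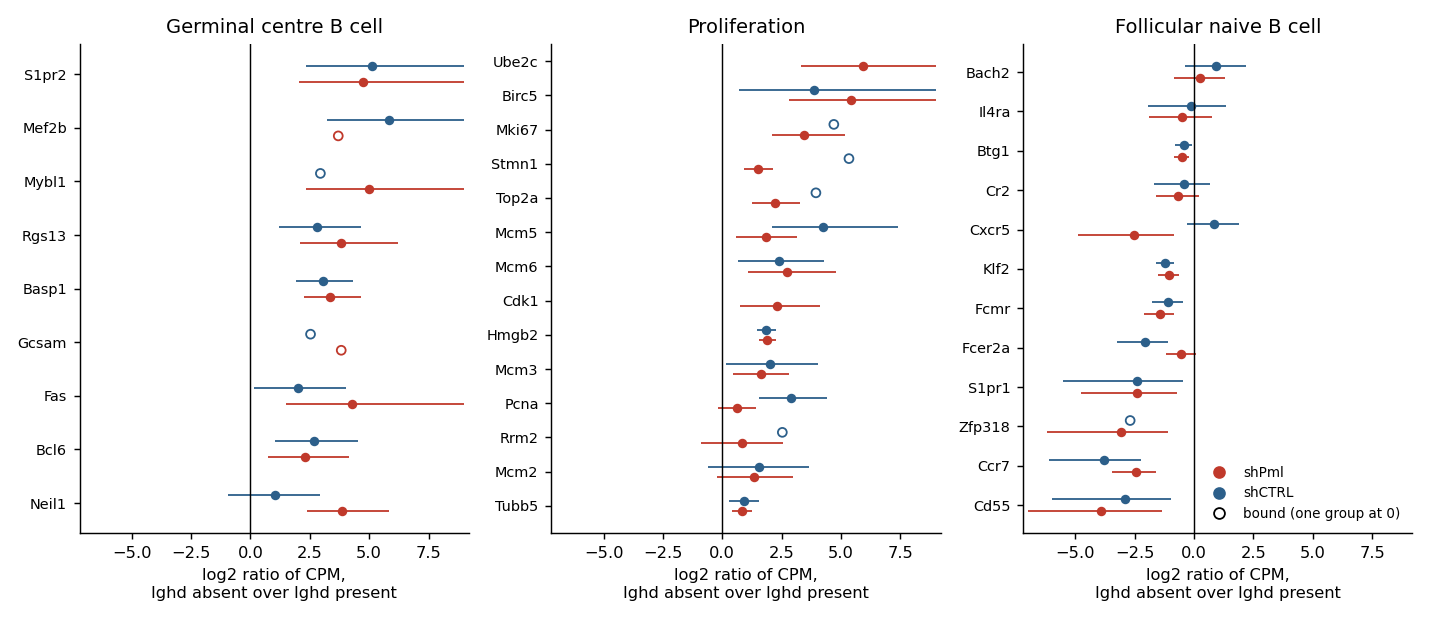
The log2 ratio of CPM in B cells without Ighd UMIs over B cells with them (x axis) for measured genes (y axis) of the germinal centre, proliferation and follicular lists, in the shPml library (red, 11 over 38 cells) and the shCTRL library (blue, 8 over 41 cells). Lines are exact 95% counting intervals, cut at the axis ends, and open circles are bounds where a group had 0 UMIs; the germinal centre and proliferation genes lie right of 0, and most follicular genes left of it.

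Plasma cells were represented by 1 deeply sampled cell in each library. The shPml cell had 24307 UMIs, 48.3% of them from immunoglobulin genes and Jchain, with 3454 Ighg2b, 7530 Igkc and 560 Jchain UMIs. The shCTRL cell had 26459 UMIs, 61.3% of them from such genes, with 4059 Ighg1, 11120 Igkc and 896 Jchain UMIs. The second shCTRL cell past the Jchain threshold had 654 UMIs, and is the fainter copy of the shPml plasma cell. Both plasma cells held 0 Ighm and 0 Ighd UMIs and 12 and 14 B cell marker UMIs. Both also held most UMIs of Slpi, a protease inhibitor gene, in their library, 1373 of 1394 in shPml and 231 of 259 in shCTRL. These 2 cells set the summed immunoglobulin levels. They gave 99.9% of the shPml Ighg2b, 99.5% of the shCTRL Ighg1, 79.0 and 83.5% of Igkc, and 84.1 and 89.7% of Jchain. Without the cells past the Jchain threshold, Ighg1 stood at 482 CPM in the shPml and 82.5 CPM in the shCTRL members, while over all members it had stood at 452 and 15129.9 CPM. The other constant genes without those cells were Ighm at 2043 and 2635 CPM, Ighd at 627 and 755 CPM, and Igkc at 6157 and 8252 CPM. Ighg2c and Ighg3 had 17 and 3 UMIs in the shPml and 7 and 5 in the shCTRL members. Of the 17 shPml Ighg2c UMIs 16 were in the plasma cell with 3454 Ighg2b UMIs. Whether UMIs counted as Ighg2c came from another IgG gene of the BALB/c hosts was not tested. Of the lambda genes, Iglc1 had 204 and 58 UMIs, 128 of the shPml ones in the cell of 30092 UMIs, Iglc2 had 251 and 266, and Iglc3 had 100 and 129.

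Variable segments were too sparse to follow clones. The 185 Ighv and 160 Igkv segments together had 15 and 49 UMIs in the shPml and 4 and 20 in the shCTRL members. Lambda V segments had 129 and 131 UMIs, of which 126 and 124 were in the cells past the Jchain threshold, although these are kappa cells by their constant genes.

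The 2 libraries were then compared over all members, gene by gene, on summed UMIs per 1000000 of the members in that library. Of 3775 measured genes, 176 (4.66%) were at least 2-fold higher and 139 (3.68%) at least 2-fold lower in the shPml B cells, 315 (8.34%) either way, with a median log2 ratio of -0.01. In 29 measured genes more than 50% of all UMIs came from 1 cell, and such genes were not chosen by the naming rule. Without cells over 20000 UMIs (54 and 52 cells remain) the counts were 96 higher and 172 lower. Within cells that have Ighd UMIs (38 and 41 cells, 2439 measured genes) 122 (5%) were higher and 124 (5.08%) lower.

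Klf2, a transcription factor of quiescent lymphocytes that controls S1pr1, had one of the best counted differences. It stood at 780.5 CPM in shPml B cells and 2014 CPM in shCTRL B cells, with 273 and 543 UMIs in 44 and 47 cells (log2 ratio -1.37, -1.58 to -1.16). Within cells that have Ighd UMIs the log2 ratio was -1.40 (-1.64 to -1.16). The immediate early genes Fos, Jund and Ier2 were lower too. Fos stood at 340.2 and 749 CPM (log2 ratio -1.14, -1.48 to -0.81), Jund at 2029.8 and 4076 CPM (log2 ratio -1.01, -1.14 to -0.87) and Ier2 at 129 and 345 CPM (log2 ratio -1.42, -1.97 to -0.89). The same genes differed between the T cell gates of the 2 libraries, with Klf2 at 673 and 2349 CPM, Fos at 107 and 845 CPM, Jund at 1408 and 2569.8 CPM and Ier2 at 353 and 456 CPM. The small GTPase gene Rhob stood at 157 and 352 CPM in the B cells (log2 ratio -1.16, -1.67 to -0.67), and at 58.1 and 206 CPM in the T cell gates. Without cells that hold an S100a8 or S100a9 UMI (33 and 47 left) the log2 ratios were -0.71 for Klf2, -0.70 for Fos, -0.84 for Jund and -0.70 for Rhob, under 2-fold, and -1.62 for Ier2. At a mitochondrial limit of 5% (15 and 28 cells) they were -0.95 for Klf2, -0.61 for Fos and -1.15 for Jund, and -0.68 for Ier2 and -0.60 for Rhob, whose intervals then held 0.

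Lower genes with fewer counts included Hist1h1c, a linker histone gene, at 137 and 401 CPM (log2 ratio -1.55, -2.07 to -1.04), though within cells with Ighd UMIs its log2 ratio was -0.46 (-1.10 to 0.18), and without the barcodes of both libraries it was -0.91. Paf1, a subunit of an elongation complex, had 5 and 23 UMIs (log2 ratio -2.58, -4.33 to -1.15). Rgl2, an effector of Ras-type GTPases, had 3 and 17 UMIs (log2 ratio -2.88, -5.29 to -1.09), and Sgms1, a sphingomyelin synthase gene, 6 and 23 UMIs (log2 ratio -2.31, -3.90 to -0.98). The zinc transporter gene Slc30a9 had 4 and 18 UMIs (log2 ratio -2.55, -4.57 to -0.94), and Akap8, a nuclear anchoring protein gene, 7 and 23 UMIs (log2 ratio -2.09, -3.56 to -0.82). At a mitochondrial limit of 5% Akap8 stood at a log2 ratio of -0.84, and with equal weight per cell Slc30a9 stood at -0.89, both under 2-fold.

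Among the higher genes, Id2, an inhibitor of E proteins, had 44 and 3 UMIs in 12 and 3 cells (log2 ratio 3.50, 1.86 to 5.83), and Nrgn, which encodes the calmodulin-binding protein neurogranin, had 30 UMIs in 6 shPml cells and 0 in the shCTRL cells, at least 7.71-fold higher against 3 counts over all shCTRL members. In the T cell gates Id2 stood at 429.8 and 219 CPM and Nrgn at 285 and 22.9 CPM. Both stood higher in the T cells than in the B cells, and the part of T cell RNA in the B cell values was not tested.

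Ccnd3, the cyclin of dividing germinal centre B cells, stood at 111 and 26.0 CPM (log2 ratio 2.10, 0.93 to 3.51), against 75.6 and 147 CPM in the T cell gates. Lars2 and Ssbp1 are nuclear genes whose proteins act in mitochondria. Lars2, a leucyl-tRNA synthetase, stood at 200.1 and 63.1 CPM (log2 ratio 1.67, 0.89 to 2.52). Ssbp1, which binds single-stranded mitochondrial DNA, stood at 120.1 and 33.4 CPM (log2 ratio 1.85, 0.79 to 3.07). Fdps, an enzyme of isoprenoid synthesis, had 25 and 3 UMIs (log2 ratio 2.68, 0.97 to 5.05), and Hspb1, a small heat shock protein gene, 50 and 8 UMIs in 6 and 2 cells (log2 ratio 2.27, 1.18 to 3.56). Ecpas had 19 and 2 UMIs (log2 ratio 2.87, 0.82 to 6.02), Dck, a deoxycytidine kinase gene, 22 and 3 UMIs (log2 ratio 2.50, 0.76 to 4.88), and Fbxw7, a ubiquitin ligase subunit gene, 18 and 2 UMIs (log2 ratio 2.79, 0.73 to 5.95). Dck turned lower within cells with Ighd UMIs, at -1.19 on 1 and 2 UMIs, and without cells that hold an S100 UMI, at -0.94, and Fbxw7 at a mitochondrial limit of 5%, at -0.38. Within cells without Ighd, Id2 and Hspb1 had 0 UMIs in the shCTRL library. Their log2 ratios there, 0.84 and 0.84, are lower bounds against 3 counts and do not show a smaller difference. Lars2 stood at 0.68 (-0.60 to 2.16) in these cells, under 2-fold.

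**Figure D4:**
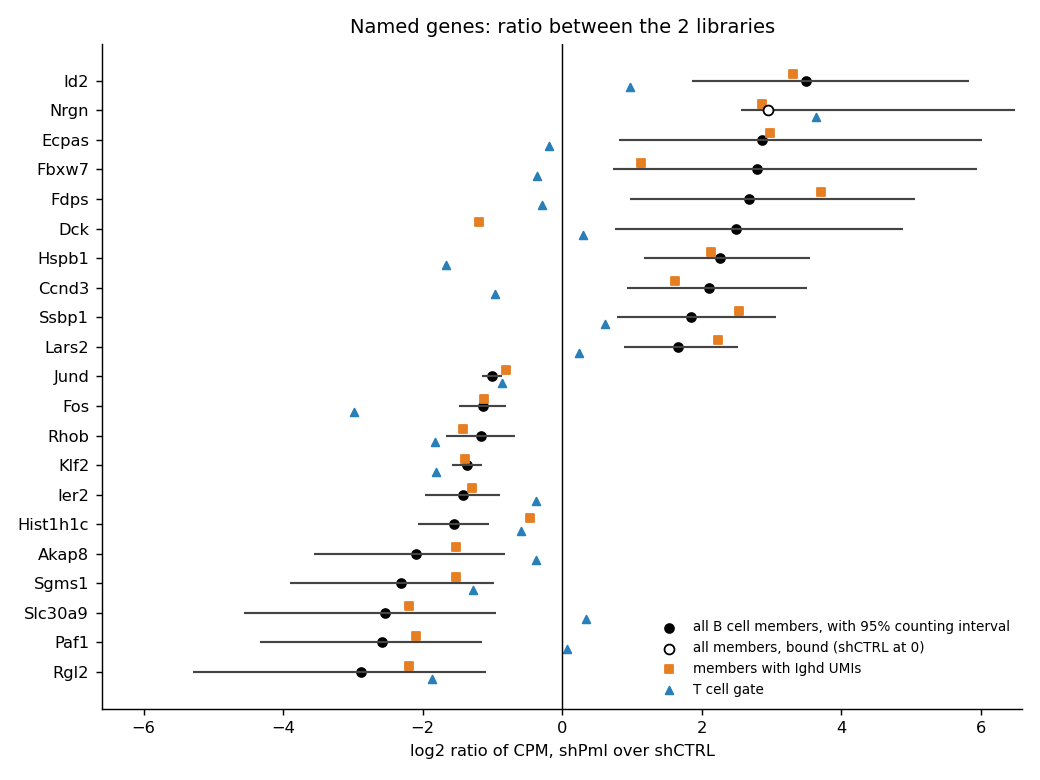
The log2 ratio of CPM, shPml over shCTRL (x axis), of the named genes (y axis), over all B cell members (black, with exact 95% counting intervals, 57 and 53 cells), over members with Ighd UMIs (orange squares, 38 and 41 cells) and in the T cell gate (blue triangles, 853 and 555 barcodes). Klf2, Fos, Jund and Rhob lie left of 0 in all 3 sets, and Nrgn and Id2 lie right of 0 in all 3; the open circle is a bound (shCTRL at 0), and intervals are cut at the axis ends.

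Antigen presentation genes leaned lower in the shPml B cells, without reaching 2-fold. Of 16 class II presentation genes 15 were measured, 0 at least 2-fold higher and 0 at least 2-fold lower, and the median log2 ratio was -0.38, with 3 of 15 above 0. Their summed level was 29387 CPM (28821 to 29960.4) in shPml B cells and 39529 CPM (38782 to 40287) in shCTRL B cells. Cd74, the invariant chain, stood at 14377 and 21195 CPM (log2 ratio -0.56, -0.61 to -0.50), and was detected in every member. The class II chain genes H2-Aa and H2-Eb1 stood at 5555 and 7222 CPM (log2 ratio -0.38, -0.47 to -0.29) and 3016 and 3984 CPM (log2 ratio -0.40, -0.53 to -0.28), but H2-Ab1 at 3116 and 3179 CPM (log2 ratio -0.03, -0.16 to 0.10). The peptide editors followed, with H2-DMb1 at 186 and 315 CPM (log2 ratio -0.76, -1.25 to -0.28), H2-DMb2 at 635 and 909 CPM (log2 ratio -0.52, -0.79 to -0.25) and H2-Oa at 197 and 282 CPM (log2 ratio -0.52, -1.01 to -0.03). Of 22 class I and peptide loading genes 18 were measured, 0 at least 2-fold higher and 0 at least 2-fold lower, with a median of -0.26, and H2-D1 stood at 2533 and 3602 CPM (log2 ratio -0.51, -0.64 to -0.37) and H2-K1 at 1612 and 1996 CPM (log2 ratio -0.31, -0.48 to -0.13). The same measure in the T cell gates gave medians of -0.45 over 11 class II and -0.09 over 18 class I genes.

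Of the B cell surface and signalling genes, the coreceptor and inhibitory receptor list leaned lower in the shPml B cells, while the identity and receptor signalling lists had medians nearer to 0. All 12 B cell identity genes were measured, 0 at least 2-fold higher and 0 at least 2-fold lower, with a median of -0.22. Of 19 coreceptor and inhibitory receptor genes 15 were measured, 0 at least 2-fold higher and 3 at least 2-fold lower, with a median of -0.41. The 3 lower ones were Fcrla, an intracellular Fc receptor homologue, at 97.2 and 237 CPM (log2 ratio -1.29, -1.93 to -0.67), the inhibitory receptor gene Btla at 57.2 and 115 CPM (log2 ratio -1.01, -1.90 to -0.15), and Fcgr2b, the inhibitory IgG receptor, with 10 and 18 UMIs (log2 ratio -1.22, -2.50 to -0.03). Fcer2a, which encodes CD23 of follicular B cells, stood at 326 and 441 CPM (log2 ratio -0.44, -0.82 to -0.05), and the inhibitory receptor gene Cd72 at 306 and 423 CPM (log2 ratio -0.47, -0.86 to -0.07). Of 21 receptor signalling genes 20 were measured, 0 at least 2-fold higher and 1 at least 2-fold lower, with a median of -0.12. The adaptor gene Blnk stood at 412 and 219 CPM (log2 ratio 0.91, 0.46 to 1.37) and the kinase gene Syk at 252 and 126 CPM (log2 ratio 1.0, 0.41 to 1.61), whereas the kinase gene Btk stood at 45.7 and 96.4 CPM (log2 ratio -1.08, -2.07 to -0.12). For Blnk, 19 of 144 shPml UMIs came from 1 cell, and within cells with Ighd UMIs its log2 ratio was 0.70 (0.13 to 1.28).

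Of 20 transcription factor genes 19 were measured, 0 at least 2-fold higher and 2 at least 2-fold lower, with a median of -0.22. The lower ones were Klf2 and Zfp318, at 91.5 and 208 CPM (log2 ratio -1.18, -1.86 to -0.53). Pou2af1 stood at 406 and 226 CPM (log2 ratio 0.84, 0.40 to 1.30), with 55 of its 142 shPml UMIs in 1 cell, and Ikzf1, a lymphoid chromatin factor, at 163 and 259.6 CPM (log2 ratio -0.67, -1.20 to -0.15). All 14 follicular genes were measured, 0 at least 2-fold higher and 3 at least 2-fold lower, with a median of -0.34 and a summed level of 4646 CPM (4423 to 4877) in shPml B cells and 6936 CPM (6625 to 7258) in shCTRL B cells. Besides Klf2 and Zfp318 the lower one was Cd55, at 80.0 and 167 CPM (log2 ratio -1.06, -1.80 to -0.35). Ccr7 stood at 372 and 459.9 CPM (log2 ratio -0.31, -0.67 to 0.06) and S1pr1 at 94.3 and 122 CPM (log2 ratio -0.38, -1.12 to 0.37), and both intervals held 0. Of 17 homing and chemokine receptor genes 12 were measured, 0 at least 2-fold higher and 0 at least 2-fold lower. Gpr183, the oxysterol receptor that positions B cells, was the one that leaned most to the higher side, at 200.1 and 108 CPM (log2 ratio 0.90, 0.25 to 1.57), and Cxcr4 stood at 355 and 501 CPM (log2 ratio -0.50, -0.86 to -0.14).

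Summed over all members, the germinal centre list stood at 872 CPM (777 to 976) in shPml B cells and 589.8 CPM (502 to 689) in shCTRL B cells. Of 12 germinal centre genes 10 were measured, 2 at least 2-fold higher and 0 at least 2-fold lower, with a median of 0.29. Gcsam was among the higher ones, with 24 and 7 UMIs (log2 ratio 1.40, 0.14 to 2.86). Mef2b, Bcl6 and S1pr2 had 26 and 23 UMIs, 20 and 16 UMIs and 18 and 14 UMIs, with log2 ratios of -0.20, -0.05 and -0.01. Without the cell with the most list UMIs in each library the levels were 669 and 515 CPM.

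Proliferation and glycolysis genes leaned higher in the shPml B cells. All 14 measured proliferation genes had a log2 ratio above 0, 4 at least 2-fold higher and 0 at least 2-fold lower, with a median of 0.69. The 4 higher ones were Ube2c, Cdk1, Birc5 and Top2a, and in the first 3 more than 50% of all UMIs came from 1 shPml cell. Top2a had 47 and 16 UMIs (log2 ratio 1.18, 0.33 to 2.10), Tubb5, a tubulin gene, stood at 543 and 345 CPM (log2 ratio 0.66, 0.29 to 1.03), and Pcna at 169 and 92.7 CPM (log2 ratio 0.86, 0.17 to 1.60). Without cells over 20000 UMIs the median of the list was -0.43, so its direction rests on those cells. In the T cell gates the median over the same genes was 1.55. All 14 measured glycolysis and hypoxia genes were above 0 as well, with a median of 0.58 and 0 at least 2-fold higher and 0 at least 2-fold lower. Gapdh, Gpi1 and Pgam1, enzymes of glycolysis, stood at 1129 and 887 CPM (log2 ratio 0.35, 0.11 to 0.59), 346 and 219 CPM (log2 ratio 0.66, 0.20 to 1.13) and 172 and 100.1 CPM (log2 ratio 0.78, 0.10 to 1.49). Mif, a cytokine gene that hypoxia induces, stood at 355 and 230.0 CPM (log2 ratio 0.62, 0.17 to 1.09), and Hif1a, the hypoxia regulator, at 106 and 55.6 CPM (log2 ratio 0.93, 0.03 to 1.90). A single shPml cell gave 61 of the 124 Mif UMIs, and a single one 28 of the 60 Pgam1 UMIs. The shPml cell of 28863 UMIs, which has Ighd, held 352 of the 1392 shPml UMIs of the list, or 25.3%. The summed list stood at 3980 and 2986 CPM, and at 3241 and 2817 CPM without the top cell of each library. Within cells that have Ighd UMIs the median was 1.08. It was -0.34 in the cells without Ighd and -0.45 where cells with 2 markers of another type were left out, and 0.75 in the T cell gates.

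Activation and stress genes had group medians near 0, with single genes that differed in either direction. Of 27 immediate early and dissociation genes 26 were measured, 0 at least 2-fold higher and 4 at least 2-fold lower, with a median of -0.14 against -0.67 in the T cell gates. Besides Fos, Jund and Ier2 the lower one was Atf3, with 9 and 16 UMIs (log2 ratio -1.21, -2.57 to 0.06). Junb stood at 723 and 1313 CPM (log2 ratio -0.86, -1.10 to -0.62), but Jun at 975 and 1057 CPM (log2 ratio -0.12, -0.35 to 0.12) and the heat shock gene Hspa1a at 1584 and 1673 CPM (log2 ratio -0.08, -0.26 to 0.10). In this list 2 intervals lay above 0 and 8 below it. The 2 were those of the heat shock genes Hsp90aa1, at 1501 and 1146 CPM (log2 ratio 0.39, 0.18 to 0.60), and Hsp90ab1 (log2 ratio 0.22, 0.06 to 0.38). Among the 8 was the heat shock gene Hspa8 (log2 ratio -0.40, -0.55 to -0.25). Of 24 activation genes 15 were measured, 1 at least 2-fold higher and 1 at least 2-fold lower, with a median of 0.11. The higher one was Ccl3, whose 44 shPml UMIs include 30 from 1 cell, and the lower one was Ccnd2, a cyclin gene of activated B cells, at 100.1 and 200.3 CPM (log2 ratio -1.0, -1.66 to -0.36). Cd83 stood at 598 and 927 CPM (log2 ratio -0.63, -0.91 to -0.36), Nr4a1, a reporter gene of antigen receptor signalling, at 246 and 393 CPM (log2 ratio -0.68, -1.10 to -0.25), and Cd69 at 306 and 241 CPM (log2 ratio 0.34, -0.11 to 0.81). The NF-kB list (11 measured) and the survival list (12 measured) had medians of 0.00 and -0.04. In the latter Tnfrsf13c, which encodes the receptor for the survival factor BAFF, stood at 286 and 456 CPM (log2 ratio -0.67, -1.07 to -0.28).

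Interferon genes went both ways. Of 36 type I interferon response genes 18 were measured, 2 at least 2-fold higher and 3 at least 2-fold lower, with a median of -0.12 in the B cells and -0.95 in the T cell gates. Parp14 had 26 and 8 UMIs (log2 ratio 1.32, 0.14 to 2.68) and Trim30a 22 and 8 UMIs (log2 ratio 1.08, -0.14 to 2.46), while Irf7, Ifi47 and Ifi209 had 7 and 15 UMIs, 8 and 16 UMIs and 7 and 13 UMIs. Ifi27l2a, an interferon-induced gene, stood at 389 and 675 CPM (log2 ratio -0.80, -1.13 to -0.47), and Ly6a at 252 and 126 CPM, with 44 of its 88 shPml UMIs in 1 cell. The 5 measured genes of the interferon gamma response had a median of -0.28, and Gbp4, a guanylate-binding protein gene, had 27 and 9 UMIs (log2 ratio 1.21, 0.08 to 2.48). Of 18 unfolded protein response genes 17 were measured, 0 at least 2-fold higher and 1 at least 2-fold lower, with a median of -0.31. The antibody-secreting list had a median of -0.50 over 14 measured genes, 0 at least 2-fold higher and 0 at least 2-fold lower. The median was 0.35 without the barcodes of both libraries, a setting that leaves out both plasma cells. Fewer than 5 genes were measured of the marginal zone and B1, memory, immature, regulatory and lymphotoxin lists. Of the 3 measured regulatory genes Cd274, which encodes PD-L1, stood at 183 and 108 CPM (log2 ratio 0.77, 0.11 to 1.45). A single cell gave 18 of its 29 shCTRL UMIs. The other 2 went the other way, Tgfb1 with a log2 ratio of -0.54 (-1.07 to -0.01) and Il12a with -0.91 (-2.31 to 0.43).

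Pml was detected in the B cells of both libraries at like levels. It had 36 and 22 UMIs in 20 and 19 cells, at 103 and 81.6 CPM (log2 ratio 0.33, -0.47 to 1.17), which does not check the hairpin, since that was in the tumour cells and not in these. Of 22 PML nuclear body and SUMO pathway genes 18 were measured, 0 at least 2-fold higher and 0 at least 2-fold lower, with a median of -0.15. Sumo2, a small modifier gene, stood at 317 and 427 CPM (log2 ratio -0.43, -0.82 to -0.04) and the nuclear body gene Sp100 at 197 and 274 CPM (log2 ratio -0.48, -0.97 to 0.02).

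**Figure D5:**
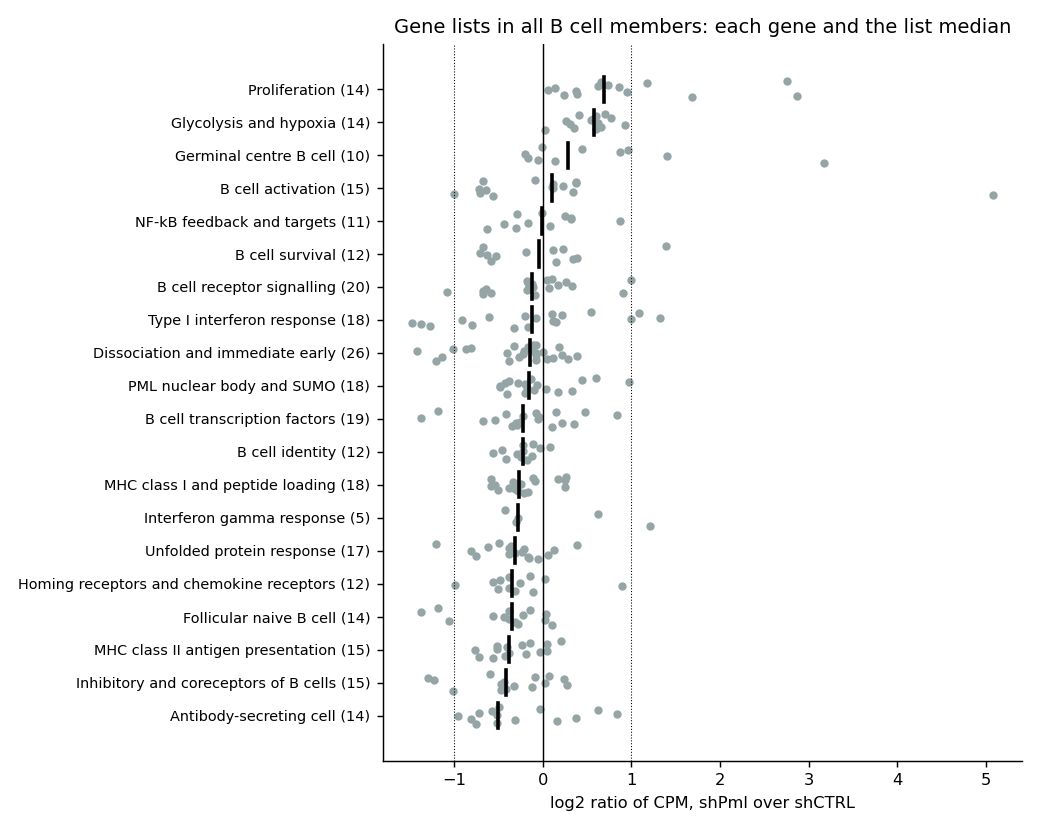
The log2 ratio of CPM, shPml over shCTRL, in all B cell members (x axis) for each measured gene (points) of 20 gene lists (y axis, number measured in brackets), with the list median as a black bar. Solid and dotted lines mark a ratio of 1 and the 2-fold limits; the medians of all 20 lists lie within those limits.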

How the data were processed

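Single-cell RNA counts (10x droplets) of CD45-positive tumour leukocytes were used from 1 shPml and 1 shCTRL library. The authors deposited whole-number UMI counts for 32285 genes with no normalization, which per the file headers came from Cell Ranger 4.0.0. R 4.3.3, Seurat 4.4.0 and the build mm10 stand in the submitters' processing notes, with no role given. The members and gene lists were chosen with earlier results of these data known.

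UMIs of the members were summed in each library and scaled per 1000000 (CPM). A gene was measured with at least 20 summed UMIs and counted with a log2 ratio of at least 1 in size. With 1 library a group no test was run. Intervals are exact 95% intervals (Clopper-Pearson for shares, Poisson for counts, conditional Poisson for ratios), and a count of 0 was bounded by 3 counts. Named genes were the 12 in each direction whose interval lay farthest from 0. Excluded were the genes of the rule, ribosomal, mitochondrial, Gm-named, Rik-named, antigen receptor, haemoglobin, Xist and Y-linked genes, genes with UMIs in fewer than 5 members, genes with more than 50% of UMIs in 1 cell, and genes under 25% of the highest level in the other gates. A few genes that the rule names are not reported here. Up to 8 genes a list, the immunoglobulin genes and Pml were added. Genes of the split by Ighd were named after their values were seen. The filter for the split summed cells with and without Ighd, so a gene could pass through the group where it was high. Python 3.11.15, numpy 2.4.6, scipy 1.17.1, pandas 2.3.3, matplotlib 3.10.9 and scanpy 1.11.5 (Scrublet, 20 components) were used, and the ratio code was tested on simulated data. In all, 20 planned and 4 added alternatives were tried.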

Additional observations from a re-analysis of the deposited data

Results flagged for a closer look

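Barcodes over the mitochondrial limit included more that carried the B cell genes than the kept barcodes did. Of the barcodes above 10% mitochondrial UMIs, 70 in the shPml and 79 in the shCTRL library met every other condition of the rule, and they enter the values above only where the limit is lifted. Their medians were 872.5 and 982 UMIs, with 32.6 and 28.6% of UMIs from mitochondrial genes. They made up 13.6% of the 514 shPml and 5.69% of the 1388 shCTRL barcodes over the limit. Ebf1 was found in 63 and 72 of them and Ighm in 49 and 66. Ighd was found in 31 and 46, or 44.3 and 58.2%, and any IgG gene in 13 and 11. Mef2b was found in 11 shPml and 2 shCTRL barcodes, and Jchain in 11 and 4. Whether these are damaged cells of the same kinds as the members was not tested.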

How the results depend on the processing

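Values were recomputed under 24 alternatives, 20 planned and 4 chosen after seeing the data. Of the log2 ratios of named genes 424 of 473 stayed within their counting error, as did 152 of 180 shares and 12 of 15 ratios of shares. List medians were set against the median half-width of the intervals of their single genes, and 413 of 428 stayed within it. That width is not the counting error of a median. Of 44 counts of genes at least 2-fold higher or lower 14 moved, and these are given below. Shares of cells with a chain are given here after thinning, and list values are median log2 ratios.

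At a mitochondrial limit of 5% (15 and 28 members) the ratio of shares was 0.308, the shPml share 2.07%, IgD in shPml cells 20%, IgG 33.3 and 21.4%, kappa in shCTRL cells 100%, the genes higher 112, and the medians -0.58 (identity), -1.05 (follicular), -0.66 (activation), -0.97 (survival), 0.88 (type I interferon) and -0.082 (immunoglobulin), with Fbxw7 at -0.38. With no mitochondrial limit the ratio was 0.970, the shPml share 5.72%, lambda in shPml cells 28.3%, kappa in shCTRL cells 81.1% and the immunoglobulin median -0.68. With 1 B cell marker UMI 353 genes were higher and the immunoglobulin median was -0.73. With no Cd3 limit the shCTRL share was 8.88%, its kappa share 89.5% and the genes lower 235. With no S100a8 or S100a9 UMI the ratio was 0.343, the shPml share 1.88%, the genes higher 116, the antibody-secreting median -1.31 and Dck -0.94. Without barcodes of both libraries the antibody-secreting median was 0.35. Without cells that hold 2 markers of another type (33 and 22 left) the shares were 1.88 and 2.57%, IgG in shPml cells 6.06%, the genes 85 higher and 55 lower, and the medians -0.45 (glycolysis) and -0.69 (immunoglobulin). Without cells under 1000 UMIs the shPml share was 4.78%, its lambda share 58.8% and kappa in shCTRL cells 100%. Without the fainter copies lambda in shPml cells was 58%.

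In members with Ighd, Dck was -1.19. In members without Ighd 89 genes were higher, and the medians were -1.38 (NF-kB) and -0.34 (glycolysis). Without cells over 20000 UMIs 96 genes were higher and the proliferation median was -0.43. With equal weight per cell 286 genes were higher and 291 lower, with a minimum of 50 summed UMIs 28 and 22, and with a minimum of 5 summed UMIs 899 and 782. Outside the T cell gate the shares were 6.33 and 17.6%. Counting a chain from 2 UMIs gave 12.3 and 7.55% for IgD, 29.8 and 26.4% for IgM, 71.9 and 84.9% for kappa, and 19.3 and 28.3% for lambda. The causes were not tested, beyond fewer cells or genes where a setting leaves them out.

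No paired analysis was possible because there was a single library for each condition. Depth limits the members to genes with at least 20 summed UMIs, and cells of few UMIs to few detected genes.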

Other observations

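Sex-linked transcripts stood apart between the B cells and the T cells of the shPml library, while in the shCTRL library the Y-linked level of the T cells was within what 0 UMIs allow in the B cells. Xist, which is transcribed from the inactive X chromosome of females, had 408 UMIs in the shPml and 210 in the shCTRL members, at 1166 and 779 CPM, and stood at 305 and 688 CPM in the T cell gates. Uty, Kdm5d, Eif2s3y and Ddx3y, all Y-linked, together had 0 UMIs in the members of both libraries, which allows up to 8.58 and 11.1 CPM. In the T cell gates they had 195 and 16 UMIs, or 122 and 6.21 CPM.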
